A study of Mus musculus with 14 samples.

Results

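The forkhead gene family was followed through reprogramming of OG2/129SV mouse embryonic fibroblasts. The genes described were all those whose symbol is Fox with a subclass letter from a to s and a number, without Foxd1. These were 27 of the 26962 genes listed in any of 14 RNA sequencing libraries, 26 coding genes and the non-coding Foxl2os. All cells carried the reprogramming factors c-Myc, Klf4, Sox2 and Oct4 by transduction, together with either a control vector or Cdk9-DN, whose name denotes a dominant-negative version of Cdk9, a kinase that helps RNA polymerase II out of its promoter-proximal pause. They grew in a medium for embryonic stem cells that held LIF and serum, and were collected 3, 4, 5 or 10 days after infection. Each vector had 2 libraries at days 4, 5 and 10 and 1 library at day 3. The labels do not say that replicates were separate cultures, so the spread behind each p-value is that between these libraries and may be technical. The libraries hold whole cultures, in which fewer cells of a type and less RNA per cell cannot be told apart.

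Forkhead proteins bind DNA through a winged-helix domain, the forkhead box. FoxA factors open chromatin in the endoderm, and FoxC, FoxF, FoxD and FoxS1 belong mainly to mesenchyme and neural crest. FoxO factors carry signals of insulin and Akt to genes of growth arrest and metabolism, FoxH1 takes Nodal signals to its targets together with Smad proteins, and FoxJ1 directs the building of motile cilia.

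The values are FPKM, which scale a gene's fragments by its exon length and by the depth of the library, with bounds from which a number of fragments behind each value can be derived. Derived this way, depth was 8.79 to 13 M fragments per library, and intervals built on such fragments cover counting error only. Of the 44 coding forkhead genes in GENCODE M21, 26 are described here, Foxd1 was left out and 17 were not analysed here, among them Foxc2, Foxf1, Foxm1, Foxo3 and Foxp1. The coding members listed in every library had a median of 2 exons, and the coding genes not analysed had a median of 6. A library listed 22 to 27 of the members, and where a gene is missing from a library's table it has no value. Cdk9 itself was not analysed here, so the labels were not checked against it.

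The cells were checked against marker genes. The 2 fibroblast markers listed in all 14 libraries summed to 8.90 to 23.8 FPKM through day 5. Pluripotency markers, 5 of 12 of which were listed in all libraries, summed to at most 0.372 FPKM before day 10, with Dppa4 at 0 in each group through day 5. In control replicate 2 of day 5 the 10 highest genes held 76.1% of the summed FPKM, against 33.4% to 66.1% in the other libraries.

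Promoters in RefSeq, 250 bases before to 50 bases after a gene start, were matched for 20 members (22 promoters). They are shown for 3 genes with different courses in these cells: Foxc1, which fell, Foxo1, which was present throughout, and Foxi3, which was at 0 until day 5. Each is written 5′ to 3′ on the gene's strand, and capitals mark 4 motifs, which may overlap and were searched on both strands. The GC box was searched as GGGCGG. The CCAAT box was searched by the letters of its name. The TATA box was searched as TATAAA. The forkhead motif was searched as TGTTTAC.
Foxc1, GRCm38.p6 chr13:31806396-31806695, plus strand: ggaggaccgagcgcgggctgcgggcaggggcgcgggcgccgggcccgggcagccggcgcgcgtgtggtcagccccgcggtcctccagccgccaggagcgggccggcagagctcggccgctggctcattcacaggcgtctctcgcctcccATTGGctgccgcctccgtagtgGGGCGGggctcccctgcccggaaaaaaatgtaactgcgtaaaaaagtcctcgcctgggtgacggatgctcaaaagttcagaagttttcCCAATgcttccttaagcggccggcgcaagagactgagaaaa
Foxo1, GRCm38.p6 chr3:52268087-52268386, plus strand: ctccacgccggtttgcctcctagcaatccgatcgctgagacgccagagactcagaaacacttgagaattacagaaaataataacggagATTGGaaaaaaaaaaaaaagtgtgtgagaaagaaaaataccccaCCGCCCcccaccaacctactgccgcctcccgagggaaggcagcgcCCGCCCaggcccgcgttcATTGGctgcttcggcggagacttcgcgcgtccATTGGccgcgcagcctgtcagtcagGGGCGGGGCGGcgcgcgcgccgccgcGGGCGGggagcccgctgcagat
Foxi3, GRCm38.p6 chr6:70956356-70956655, plus strand: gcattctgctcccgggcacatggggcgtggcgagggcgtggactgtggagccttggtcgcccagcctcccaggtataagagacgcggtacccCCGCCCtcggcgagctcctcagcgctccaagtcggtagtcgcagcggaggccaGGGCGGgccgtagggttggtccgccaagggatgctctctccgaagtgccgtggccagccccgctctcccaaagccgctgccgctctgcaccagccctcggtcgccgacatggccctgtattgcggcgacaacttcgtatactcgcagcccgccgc
The 3 promoters were rich in CpG, with 32 CpG dinucleotides for Foxc1 and 31 each for Foxo1 and Foxi3, where the median of all 32851 promoters was 7. The median of the 22 member promoters was 22. Foxo1 had 5 GC boxes, 2 of which overlap, and 3 CCAAT boxes. Foxc1 had 1 GC box and 2 CCAAT boxes, and Foxi3 had 2 GC boxes and no CCAAT box. A GC box was found in 18 of the 22 member promoters and in 35.7% of all promoters, and a CCAAT box in 11 of the 22 and in 37.4%. A TATA box was in 2 of the 22 and in 13.6% of all, and the forkhead motif in 1 of the 22, that of Foxa1, and in 3.65% of all. These matches describe letters in the window and no binding.

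The members spanned a wide range of levels. Foxk1, a repressor linked to nutrient signalling, was the highest, at 13.3 to 17.4 FPKM in the 8 libraries that list it. Foxj2 followed with 5.86 to 10.2 FPKM in 11 libraries. Foxc1 (2.07 to 5.54 FPKM) and Foxo1 (3.28 to 4.58 FPKM) were listed and above 1 FPKM in every library. Of the 27 members, 8 reached 1 FPKM in 2 or more of the 12 libraries taken at day 4, 5 or 10 and entered the tests, and 19 did not. Foxh1, Foxj1, Foxs1 and Foxi3 passed this filter through part of the course only. Of the 19 below it, Foxe3 and Foxi1 were at 0 in all 14 libraries, and Foxa2 and Foxn4 were at 0 in the 10 and 5 libraries that list them.

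**Figure D1:**
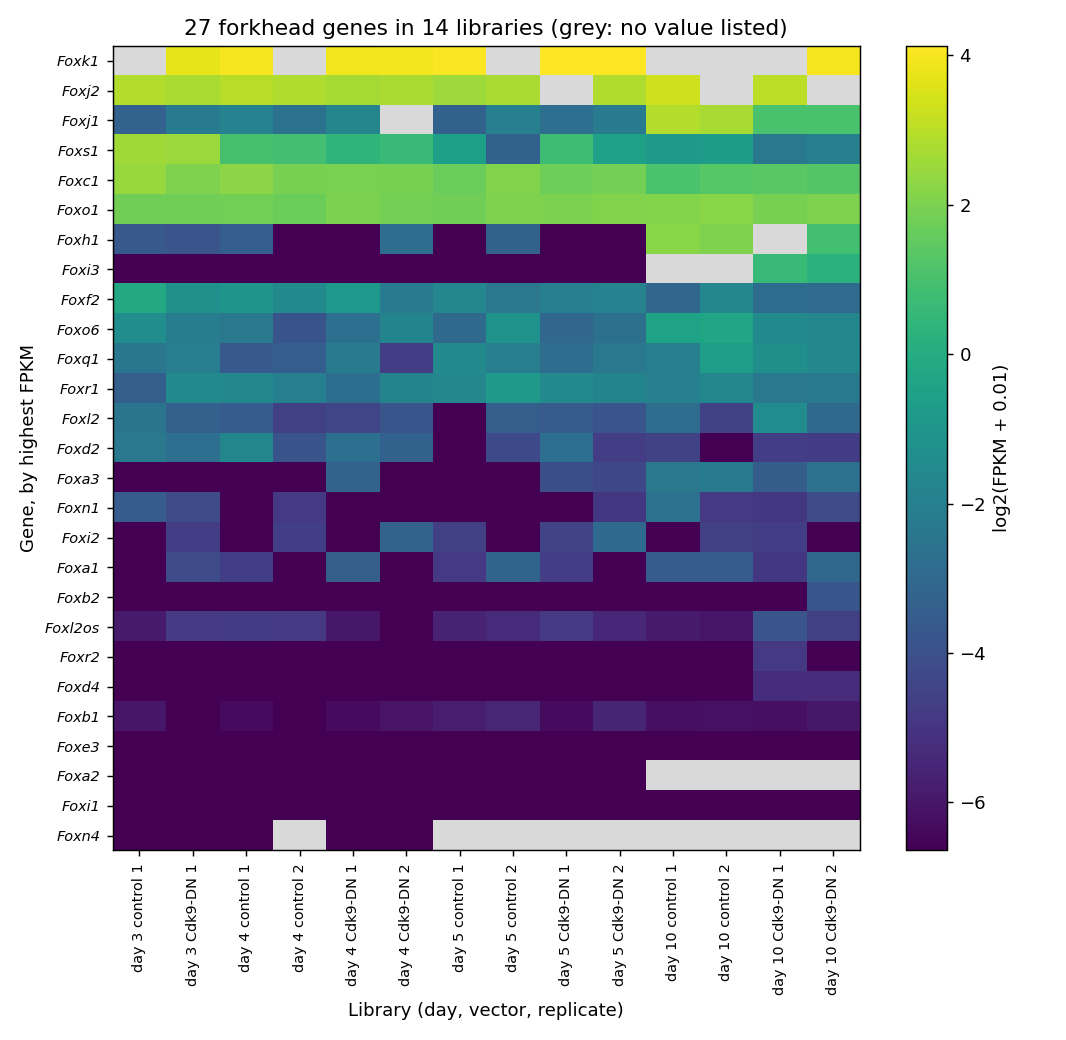
Levels of the 27 forkhead genes as log2(FPKM + 0.01), one row a gene ordered by its highest FPKM and one column a library by day, vector and replicate; grey marks a library with no value for the gene. Foxh1 and Foxj1 brighten at day 10, Foxs1 is brightest at day 3, and most lower rows stay near 0 FPKM.

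Between day 4 and day 10 several forkhead genes changed in the control cells. All cells carried the reprogramming factors, so reprogramming and time in culture cannot be told apart in this comparison. Foxh1 and Foxj1 came up from near 0, Foxo1 and Foxj2 rose slightly, and the mesenchymal genes Foxc1 and Foxs1 fell. Of the 6 members tested, 4 were higher at day 10 and 2 lower, a count that the filter shaped: Foxh1 and Foxj1 reached 1 FPKM at day 10 only, and Foxs1 at day 4 and in 1 library of day 5. With no filter 7 of 21 members were called, where 28.1% of all genes were called. Over all 5814 genes tested the share called was 50%, made up of 28.2% higher and 21.8% lower, and the median was 0.07, so a call as such is common in this comparison. A call is an adjusted p under 0.05 in limma's moderated test on log2(FPKM + 1), a scale that understates the change of low genes. The all-gene median of this comparison was -0.08 under quantile normalization, and in Cdk9-DN cells it was 0.11, or -0.03 under median-of-ratios scaling. Under either scaling Foxo1 and Foxj2 lost their calls, which left 2 higher and 2 lower.

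Foxj1, the motile cilia factor (mm9, chromosome 11, 116192018 to 116196713), stood at 0.261 and 0.151 FPKM in the control libraries of day 4. The day 5 values were 0.0904 and 0.248 FPKM, and the day 10 values 7.29 and 6.59 FPKM. Both day 10 libraries lay far above all earlier ones. The difference from day 4 was 2.72 on the log2 scale, and since Foxj1 passed the filter through day 10 libraries only, its p is given from the fit with no filter (adjusted p = 2.17e-05, limma). The fragments behind it, 12 at day 4 and 431 at day 10, gave a ratio of 34.7 with an exact 95% interval of 19.7 to 67.7.

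Foxh1, the Smad partner in Nodal signalling (chromosome 15, 76498714 to 76500378), was at 0.0819 and 0 FPKM in control cells at day 4, which is 1 fragment in all. The day 5 values were 0 and 0.0909 FPKM, and the day 10 values 4.56 and 4.13 FPKM on 118 fragments. A value of 0 allows up to 0.206 FPKM, the worth of 3 fragments. Again both day 10 libraries stood above all earlier ones, and the difference from day 4 was 2.36 on the log2 scale. Foxh1 too passed the filter through day 10 libraries only, and with no filter the adjusted p was 1.78e-05 (limma).

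Foxc1, a factor of mesenchyme, bone and eye development (chromosome 13, 31898515 to 31902504), stood at 4.72 and 3.78 FPKM in control cells at day 4. The day 5 values were 3.17 and 4.29 FPKM, and the day 10 values 2.07 and 2.49 FPKM. The groups of days 4 and 5 overlapped and both day 10 libraries lay below them. It fell by 0.67 on the log2 scale (SE 0.14, adjusted p = 0.0056, limma), and in a fit of these groups alone the adjusted p was 0.0662.

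Foxs1, expressed in neural crest derivatives and vessel-associated cells (chromosome 2, 152757634 to 152758944), was high first, when the day 3 libraries had 6.02 FPKM with the control vector and 5.61 FPKM with Cdk9-DN. At day 4 it stood at 1.96 and 1.84 FPKM in control cells. With 1 library per vector at day 3 this step has no test. The fragments, 86 at day 3 and 52 in both libraries of day 4, gave a day 3 to day 4 ratio of 3.16 with an exact 95% interval of 2.21 to 4.55. Blood cell markers, 3 of 7 of which were listed in all libraries, were lower after day 3 as well. Their sum was 9.21 FPKM in control cells at day 3, then 2.65 to 2.85 FPKM at day 4, with Hba-a1 at 0, and 0.953 to 2.08 FPKM at day 5. With Cdk9-DN it was 10.5 FPKM at day 3 and 2.94 to 2.98 FPKM at day 4, and the part of blood cells in the Foxs1 values was not tested.

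At day 5 Foxs1 was at 0.658 and 0.0905 FPKM in control cells, the lower value being 1 fragment in the library whose highest genes held most of the FPKM. At day 10 it was at 0.559 and 0.60 FPKM. From day 4 to day 10 it fell by 0.88 on the log2 scale (SE 0.25, adjusted p = 0.0222, limma), and without any 1 of the 4 libraries compared the adjusted p was 0.0692 to 0.0846. With a pseudocount of 0.1 FPKM it was 0.0798. Foxs1 passed the filter through the day 4 libraries and 1 library of day 5, so the filter favoured a fall. With no filter this fall was still called. The step from day 4 to day 5 alone did not pass (-1.11, adjusted p = 0.0537, limma), though it passed without either Cdk9-DN library of day 5 (0.0356 and 0.0358).

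Foxo1, the FoxO factor restrained by Akt (chromosome 3, 52072259 to 52154031), stayed between 3.28 and 4.58 FPKM in all 14 libraries. Its control values were 3.56 and 3.28 FPKM on day 4, then 3.43 and 4.06 FPKM on day 5, and finally 4.34 and 4.58 FPKM on day 10. Foxo1 rose by 0.30 on the log2 scale from day 4 (SE 0.0868, adjusted p = 0.0222, limma). The adjusted p was 0.103 and 0.171 under the 2 scalings, 0.12 in a fit of these groups alone, and 0.105, 0.0534 and 0.0976 without control replicate 2 of day 4 and control replicates 1 and 2 of day 10.

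Foxj2 (chromosome 6, 122769932 to 122795384) had control values of 7.71 and 7.26 FPKM on day 4, then 5.86 and 6.70 FPKM on day 5, and 10.2 FPKM in the 1 control library of day 10 that lists it. It was higher at day 10 than at day 4 by 0.40 (SE 0.107, adjusted p = 0.041, limma) and than at day 5 by 0.62 (adjusted p = 0.0106, limma). The first of these calls was lost without either day 4 library of either vector (0.0806 to 0.134), with no filter on low values (0.0621) and with the replicate number as a block (0.0802). Foxk1 had no control value at day 10 and was at 15.6 and 16.5 FPKM in the 1 control library each of days 4 and 5.

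Between the closer days fewer members were called. From day 4 to day 5 in control cells 0 of 8 passed and 1, Foxs1, had an unadjusted p under 0.05, where 5.02% of all genes were called, 1.83% higher and 3.19% lower. In these libraries Foxi3 was at 0 and Foxh1 and Foxj1 stood near 0, which left them little or no room for a call. From day 5 to day 10 Foxh1, Foxj1 and Foxj2 were higher and Foxc1 lower (4 of 6, against 49.8% of all genes, 27.3% higher and 22.5% lower). The filter shaped this count too, since Foxh1 and Foxj1 passed it through day 10 libraries only. With no filter 6 members were called, where 28.1% of all genes were called. The fall of Foxc1 over these days (-0.52, adjusted p = 0.0175, limma) was not called without control replicate 2 of day 5 (0.0937), without control replicate 1 of day 10 (0.0952) or in a fit of these groups alone (0.132).

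**Figure D2:**
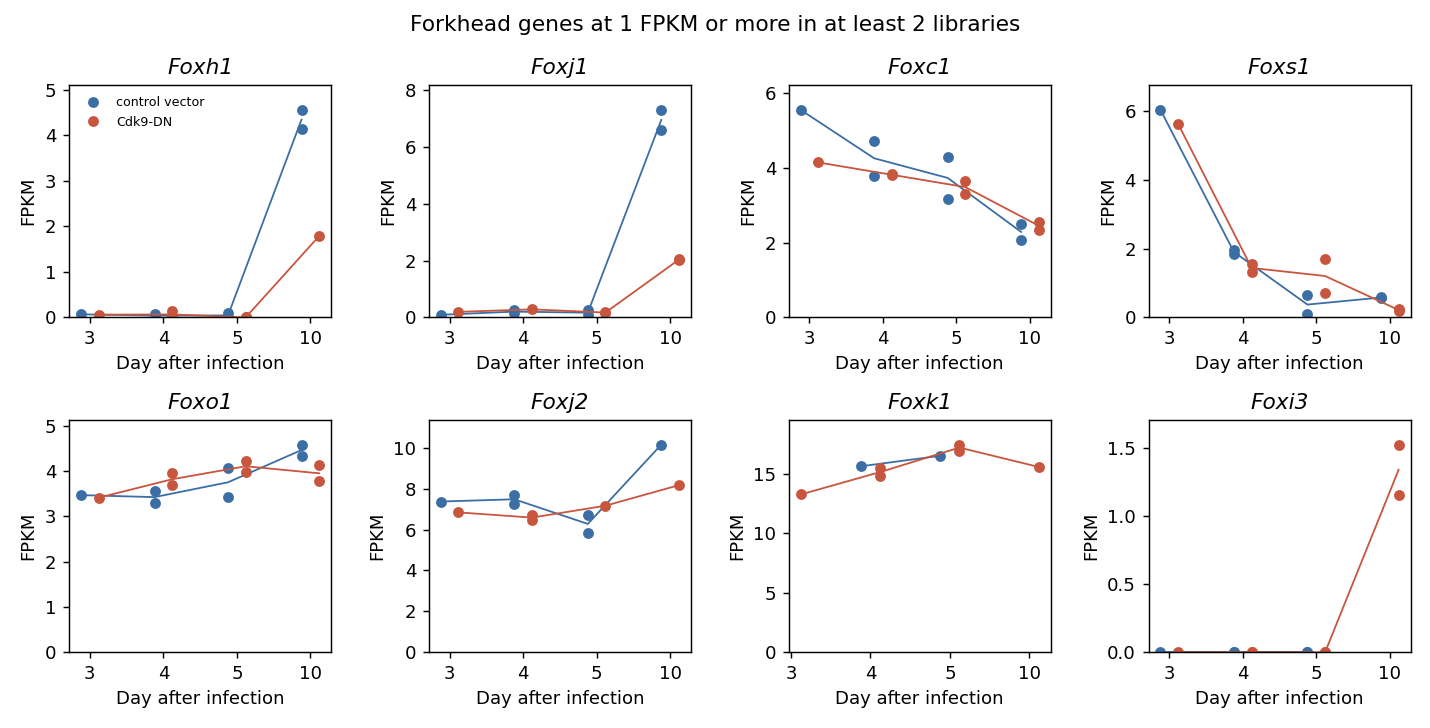
FPKM of the 8 forkhead genes above the filter by day after infection (days evenly spaced, not to scale); each point is a library, lines join the group means, and an absent point is a library with no value. At day 10 control and Cdk9-DN libraries stand apart for Foxh1 and Foxj1 and lie close for Foxc1 and Foxo1.

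Cdk9-DN cells took the same course less far for Foxh1 and Foxj1. Of 8 members tested from day 4 to day 10 in these cells, Foxh1, Foxj1 and Foxi3 were higher and Foxc1 and Foxs1 lower, where 38% of all genes were called, 24.5% higher and 13.5% lower. The 3 higher ones passed the filter through day 10 libraries only. With no filter 5 of 23 members were called, where 20% of all genes were called. Foxj1 went from 0.286 FPKM, in the 1 library of day 4 that lists it, to 2.04 and 2.02 FPKM (1.24, adjusted p = 0.00208 in limma with no filter). Foxh1 went from 0 and 0.135 FPKM to 1.79 FPKM in 1 library (1.39, adjusted p = 6.11e-04 in limma with no filter).

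Foxc1 fell in Cdk9-DN cells from 3.82 and 3.8 FPKM at day 4 to 2.55 and 2.35 FPKM (-0.48, SE 0.14, adjusted p = 0.0314, limma). Foxs1, which passed the filter mainly through day 4 libraries, fell from 1.33 and 1.55 FPKM to 0.188 and 0.246 FPKM (-1.0, SE 0.25, adjusted p = 0.0175, limma). Each of these calls was lost when any 1 of the 4 libraries compared was left out, with adjusted p of 0.0805 to 0.128 for Foxc1 and 0.0552 to 0.0781 for Foxs1. Foxo1 had 3.94 and 3.69 FPKM on day 4 against 3.77 and 4.12 FPKM on day 10, groups that overlap.

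Foxi3, a factor of the ectoderm that forms placodes and hair (chromosome 6, 70906525 to 70911060), was listed at 0 in all 10 libraries of days 3, 4 and 5. In Cdk9-DN cells at day 10 it was at 1.53 and 1.16 FPKM, on 20 and 16 fragments. Foxi3 passed the filter through these 2 libraries alone, so a higher day 10 level was fixed by the filter. With no filter the difference from day 4 was 1.22 (adjusted p = 1.15e-04, limma), and no fold is given against groups listed at 0. Control cells had no value at day 10, so Foxi3 was not compared between the vectors there.

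The comparison of Cdk9-DN with control cells on the same day asked what Cdk9-DN did to these genes. At days 4 and 5 none of the 8 members tested passed. Foxi3 was at 0 in every library of these days and could not be called. Foxh1 and Foxj1 reached at most 0.135 and 0.286 FPKM there, which left them little room for a call. At day 10 Foxh1 and Foxj1 were lower in Cdk9-DN cells, and Foxc1, Foxo1, Foxs1 and Foxj2 did not pass. At day 4 limma called 0.0336% of all genes, all lower, and at day 5 0.169%, of which 0.0678% higher and 0.102% lower, and 0 and 1 of the members had an unadjusted p under 0.05, so these days had few calls of any kind. At day 10 2 of 6 members were called, both lower, where 28.9% of all genes were called, 14.5% higher and 14.4% lower. This comparison and the day 10 against day 4 comparison in control cells share the control libraries of day 10.

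For Foxj1 the control libraries of day 10 had 7.29 and 6.59 FPKM and the Cdk9-DN libraries 2.04 and 2.02 FPKM, with no overlap. Control cells had a mean of 6.94 ± 0.497 FPKM (SD, n = 2), against 2.03 ± 0.0117 FPKM (SD, n = 2) with Cdk9-DN. The log2 difference was -1.39 (SE 0.102, adjusted p = 3.68e-04, limma), and it kept its call in every alternative that tested it, at adjusted p up to 0.032. The fragments, 431 and 138, gave a control to Cdk9-DN ratio of 3.42 with an exact 95% interval of 2.82 to 4.17. At day 5 the Cdk9-DN values, 0.142 and 0.204 FPKM, lay between those of the control libraries.

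For Foxh1 the control libraries of day 10 had 4.56 and 4.13 FPKM (4.35 ± 0.303, SD, n = 2) and 1 Cdk9-DN library, replicate 2, had 1.79 FPKM. Replicate 1 does not list the gene, so its spread in Cdk9-DN cells comes from the other groups. The log2 difference was -0.94 (SE 0.124, adjusted p = 0.00311, limma), on 118 fragments in control and 29 in Cdk9-DN cells, a control to Cdk9-DN ratio of 2.43 with an exact 95% interval of 1.61 to 3.78. Foxh1 would have passed the filter through the 2 control libraries alone, and with no filter, where 14.9% of all genes and 3 of 21 members were called, its adjusted p was 0.00468 (limma). With a pseudocount of 0.1 FPKM the difference was -1.23 and not called (adjusted p = 0.253).

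On the log2(FPKM + 1) scale the Cdk9-DN effect on both genes was larger in size at day 10 than at day 4. Both genes stood near 0 at day 4, where this scale leaves little room for a difference. The comparison therefore mostly restates that of day 10. It rests on 1 Cdk9-DN library of day 10 for Foxh1 and 1 of day 4 for Foxj1. The difference between these days was tested as a contrast of its own, in which 15.7% of all genes were called, 7.95% higher and 7.79% lower. It was -1.48 for Foxj1 (SE 0.161, adjusted p = 0.00296, limma) and -0.97 for Foxh1 (SE 0.16, adjusted p = 0.012, limma). Both genes passed the filter through day 10 libraries only, which may have favoured these calls. With no filter both were still called. With a pseudocount of 0.1 FPKM neither was called (adjusted p = 0.0584 and 0.36). The other 4 members tested did not pass.

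The members that did not pass at day 10 had these values. Foxc1 differed by 0.07 on the log2 scale (95% interval -0.26 to 0.40, adjusted p = 0.75, limma; -0.02 without control replicate 1), where control cells had 2.28 ± 0.297 FPKM against 2.45 ± 0.147 FPKM with Cdk9-DN (SD, n = 2). Foxo1 differed by -0.14 (-0.35 to 0.06, adjusted p = 0.273, limma), and its control libraries, 4.34 and 4.58 FPKM, lay above those of Cdk9-DN, 3.77 and 4.12 FPKM. Foxj2, with 10.2 and 8.18 FPKM in 1 library each, differed by -0.28 (-0.62 to 0.06, adjusted p = 0.182, limma).

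Foxs1 stood higher in both control libraries of day 10 (0.559 and 0.60 FPKM) than in both Cdk9-DN libraries (0.188 and 0.246 FPKM), on 17 and 7 fragments. Its difference was -0.38 (-0.96 to 0.21, adjusted p = 0.317, limma), and -0.38 with adjusted p = 0.0449 in a fit of these 2 groups alone. At day 5 the order was the other way round, 1.71 and 0.70 FPKM for Cdk9-DN against 0.658 and 0.0905 FPKM for the control vector (0.67, unadjusted p = 0.0303, adjusted p = 0.541, limma). The day 5 difference was 0.34 to 1.01 when 1 library was left out.

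**Figure D3:**
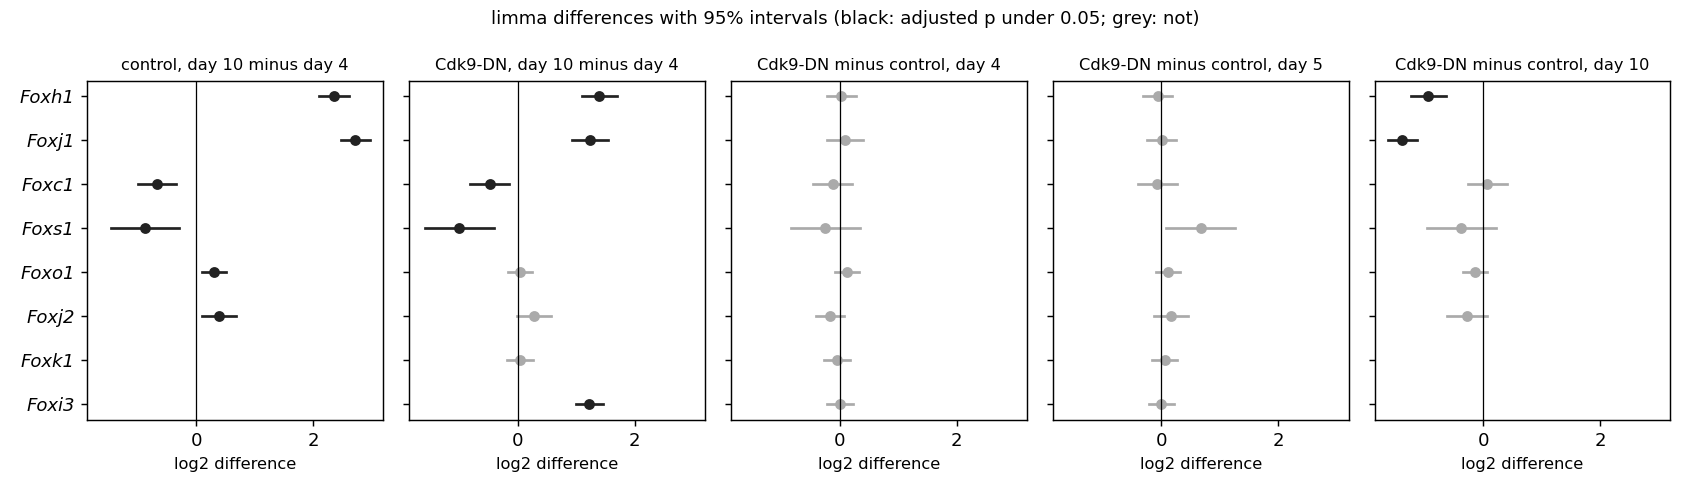
Log2 differences from limma on log2(FPKM + 1) with 95% intervals for the 8 forkhead genes above the filter, in 5 comparisons; black marks an adjusted p under 0.05 and grey the others, and an absent point is a comparison without values. Between the vectors only the Foxh1 and Foxj1 intervals of day 10, at -0.94 and -1.39, are black.

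Markers of several cell types also differed between days or vectors, in both directions. The 3 epithelial markers listed in all libraries summed to 2.43 to 2.89 FPKM in control cells at day 4, with Cldn4 at 0. At day 10 the sum was 262 to 271 FPKM in control cells, against 58.5 to 65.2 FPKM with Cdk9-DN. The 5 pluripotency markers summed at day 10 to 45.8 to 53.6 FPKM in control cells, against 19.7 to 20.4 FPKM with Cdk9-DN, with none at 0. The 2 fibroblast markers summed to 3.85 to 4.42 FPKM in control cells, against 13.3 to 15 FPKM with Cdk9-DN. This sum leaves out markers that some libraries do not list. Among those, Mmp2 was lower with Cdk9-DN (-0.54), and Thy1 and Pdgfra differed by 0.08 each and were not called.

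By gene, in a comparison with 14.5% of all genes higher and 14.4% lower, Cdk9-DN cells at day 10 were lower in 5 of 5 epithelial and 4 of 5 pluripotency markers tested, and higher in 2 and lower in 1 of 5 fibroblast markers. They were lower in the 1 endothelial marker tested, higher in 2 of 3 neural and 2 of 3 kidney stroma markers (1 of these Foxd1), and did not pass for the 1 blood marker. The 2 endothelial markers listed in all libraries summed to 3.68 to 3.81 FPKM in control cells at day 10. With Cdk9-DN at day 10 this sum was at most 0.974 FPKM, and before day 10 at most 0.275 FPKM. The filter may therefore have favoured the endothelial call. The part of these cell types in the forkhead results was not tested.

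**Figure D4:**
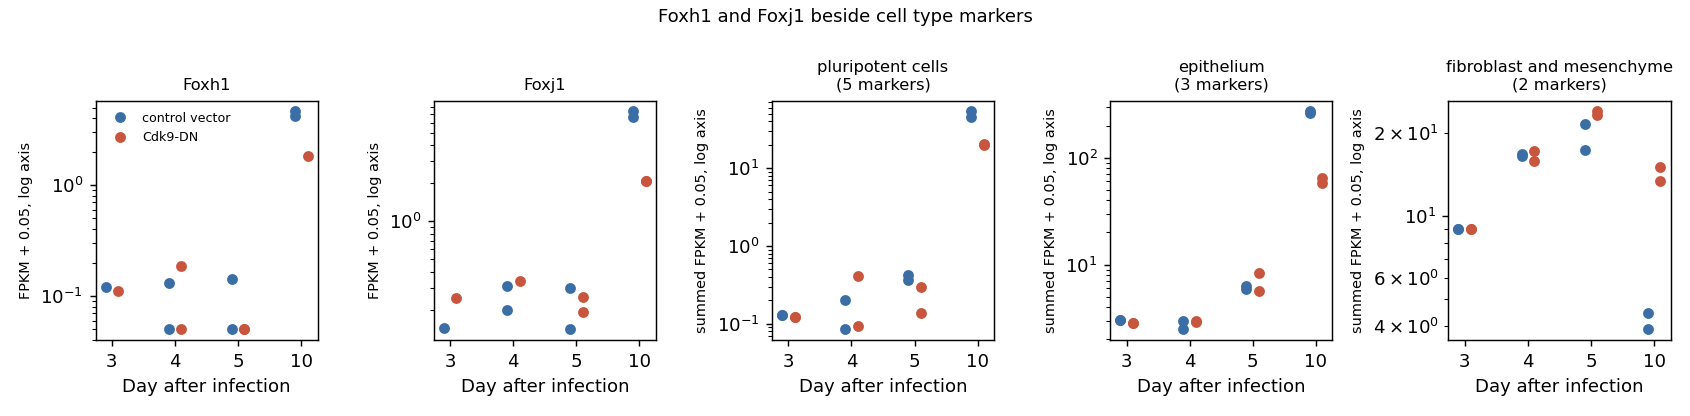
FPKM of Foxh1 and Foxj1 and summed FPKM of pluripotency, epithelial and fibroblast markers listed in all 14 libraries, each plus 0.05 on log axes with their own ranges, by day (evenly spaced, not to scale) and vector; each point is a library. At day 10 control libraries stand above Cdk9-DN libraries in the first 4 panels and below them in the fibroblast panel, which sums 2 of 14 markers.

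The 19 members below the filter stayed under 1 FPKM in every library. Foxf2 and Foxo6 reached the highest levels among them, 0.887 and 0.798 FPKM. Foxo6, the FoxO member best known from brain, stood at 0.188 and 0.0605 FPKM in control cells at day 4, and at 0.74 and 0.798 FPKM at day 10. Cdk9-DN cells had 0.347 and 0.311 FPKM at day 10, below both control libraries, on 20 fragments against 44, a control to Cdk9-DN ratio of 2.41 with an exact 95% interval of 1.39 to 4.32. With no filter on low values limma gave 0.66 for the control change from day 4 to day 10 (adjusted p = 0.00644) and -0.41 for Cdk9-DN against control at day 10 (adjusted p = 0.0707).

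Foxq1, Foxf2 and Foxc1 neighbour each other on chromosome 13, from 31650039 to 31902504 in mm9, with Foxc1 far above the others. Foxq1, an epithelial factor, had control values of 0.0695 and 0.0842 FPKM on day 4 against 0.238 and 0.625 FPKM on day 10, on 3 and 27 fragments. Foxf2, a factor of gut and palate mesenchyme, was highest in the control library of day 3, at 0.887 FPKM, where the Cdk9-DN library had 0.411 FPKM. It had 0.108 and 0.308 FPKM in control cells at day 10. In control cells Foxc1 and Foxf2 had their highest value at day 3 and Foxq1 at day 10, each in 1 library. With Cdk9-DN the highest Foxf2 value, 0.520 FPKM, was at day 4. The lower control value of Foxq1 at day 10 lay below 0.337 FPKM, its value in control replicate 1 of day 5.

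Of the FoxA genes of endoderm, Foxa3 was at 0 in all 5 control libraries of days 3 to 5 and at 0.181 and 0.216 FPKM in those of day 10. Each of these 2 values rests on about 3 fragments, and with no filter the change from day 4 was 0.26 (adjusted p = 0.00513, limma). With Cdk9-DN Foxa3 was at 0.0943 and 0 FPKM at day 4 and at 0.0501 and 0.0412 FPKM at day 5. Its Cdk9-DN values at day 10 were 0.0813 and 0.159 FPKM. Foxa1 stayed between 0 and 0.114 FPKM and had at most 5 fragments. Foxd2, a gene of mesenchyme, had its highest value, 0.299 FPKM, in a control library of day 4 and at most 0.0320 FPKM at day 10.

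Foxl2, the ovarian granulosa cell factor, had at day 10 0.36 and 0.118 FPKM with Cdk9-DN, against 0.134 and 0.0319 FPKM in control cells, groups that overlap. Its neighbour Foxl2os reached 0.0611 FPKM, about 2 fragments, and with no filter gave 0.06 for Cdk9-DN against control at day 10 (adjusted p = 0.0497, limma). Whether reads were counted by strand is not given in the sources used here. Foxr1 lay between 0.0869 and 0.54 FPKM in the 14 libraries. Foxn1 reached 0.154 FPKM and Foxi2 0.118 FPKM, and Foxb1, Foxb2, Foxd4 and Foxr2 never had 1 whole fragment.

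Foxd1, the relative left out of the set, had at day 10 17.1 and 27.8 FPKM in control cells against 138 and 133 FPKM with Cdk9-DN, a difference opposite in sign to those of Foxh1 and Foxj1.

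Genes that work with forkhead factors were counted from gene lists. In the comparison of control day 10 with day 4, 28.2% of all genes were called higher and 21.8% lower, and in that of Cdk9-DN with control at day 10, 14.5% higher and 14.4% lower. The counts of the lists are to be read against these shares. Of 22 FoxO target genes 11 were listed and 8 tested in control cells, and 5 were higher at day 10 than at day 4, with 0 lower (median 0.68, all genes 0.07). They included the mitophagy kinase gene Pink1 (1.41), the stress gene Sesn1 (1.41), the cell cycle inhibitor gene Cdkn1b (1.38) and the autophagy gene Gabarapl1 (0.97). Against control at day 10, Cdk9-DN cells had 2 of 7 lower, Cdkn1b (-0.98) and Klf6 (-0.81), and 0 higher, where 28.9% of all genes were called in either direction. Of 17 FoxO regulators 2 were tested. Skp2, a ubiquitin ligase subunit, and Ywhag, a 14-3-3 protein gene, were lower at day 10 in control cells (-0.36 and -0.75) and higher with Cdk9-DN (0.83 and 0.45).

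Foxm1 was not analysed here, and of 14 of its targets 6 were listed and 4 tested in control cells from day 4 to day 10. Kif20a, a mitotic kinesin, was lower (-1.41), as were Plk1 (-1.25) and Birc5 (-1.21), where 21.8% of all genes were lower. Against control at day 10, 1 of 5 was higher with Cdk9-DN, Birc5, where 14.5% of all genes were higher. The genes beside forkhead loci gave 1 tested gene, Gmds, which did not pass (-0.02 from day 4 to day 10 in control cells, -0.45 with Cdk9-DN at day 10).

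Among 38 mesenchymal factors that act with FoxC, FoxF or FoxD genes, 13 were tested. In control cells 9 were lower at day 10 than at day 4 and 0 higher (median -0.82), where 21.8% of all genes were lower and 28.2% higher, led by Meox2 (-2.69), Twist2 (-2.67), Twist1 (-2.09) and Osr1 (-1.99). With Cdk9-DN at day 10, Meox2 (1.33), Twist1 (0.83), Osr1 (0.50) and Alx4 (0.38) were higher and Barx1 (-0.52) lower than in control cells. Of 16 endoderm factors 3 were tested. Spink3, a secreted trypsin inhibitor gene, was higher at day 10 in control cells (2.70) and lower with Cdk9-DN (-2.51). The laminin gene Lama1 went the other way (-0.87 and 0.61). Spink3 differed by 0.00 between the vectors at days 4 and 5 and by 0.20 from day 4 to day 10 in Cdk9-DN cells. Only the control libraries of day 10 stood out, so the filter may have favoured both Spink3 calls.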

How the data were processed

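The 14 deposited tables hold FPKM with a lower and an upper bound per gene, computed by the authors for 1 library each. Per the submitters' processing notes, the tools were CASAVA 1.8.2, TopHat2 2.0.10 and Cufflinks 2.2.1 and the builds mm9 and NCBIM37; the annotation is not given in the sources used here. Gene coordinates are those of the deposited tables. Promoter coordinates are GRCm38.p6, and exon numbers come from GENCODE M21 on GRCm38.

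Values of the 16 genes with several entries were summed, and 1 entry with a failed status was left out. Depth and fragments were derived from the bounds, taken as 2 standard deviations of counting error, which was not tested. The 7460 genes that reached 1 FPKM in 2 or more of the 12 libraries after day 3 were tested. They were fitted on log2(FPKM + 1) as 6 groups with limma 3.58.1 (R 4.3.3), each gene on the tables that hold it and only with 2 or more residual degrees of freedom, with an intensity trend and two-sided Benjamini-Hochberg adjustment over all genes of a contrast. For a group with a single value the spread is taken from the other groups. The day 3 libraries had no test. Fragment ratios have exact conditional 95% intervals (scipy 1.17.1, Python 3.11.15). The procedure was tested on simulated data. Alternatives were separate fits, a pseudocount of 0.1, no filter, 2 scalings, genes listed in all 12 libraries, a replicate block and leaving out each library.

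Named genes were all members above the filter, and per list up to 4 called genes with the largest difference. The members and lists were chosen with earlier results of these data known.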

Additional observations from a re-analysis of the deposited data

Results flagged for a closer look

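On the log2(FPKM + 1) scale the Cdk9-DN effect differed between days for 2 forkhead genes. The log2 effect at day 10 minus that at day 4 was -1.48 for Foxj1 and -0.97 for Foxh1 (limma, adjusted p = 0.00296 and 0.012). Both genes passed the filter through day 10 libraries only, which may have favoured these calls. Control and Cdk9-DN stood near 0 for both genes at day 4, and at day 10 each control library lay above each Cdk9-DN library that lists the gene. With a pseudocount of 0.1 FPKM the values were -2.08 and -1.42 and neither was called.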

How the results depend on the processing

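Values for single forkhead genes kept their direction and their side of the threshold in 406 comparisons with an alternative, were no longer called in 36, newly called in 3 and reversed in 1: Foxc1, Cdk9-DN minus control at day 10, was -0.02 without control replicate 1 of day 10 and up to 0.17 without control replicate 2. The 406 include fits that left out a library outside the groups compared, which does not move the difference. They also include values called in neither fit, so these counts do not measure how firm the calls are. The number of forkhead genes called moved as follows. With a pseudocount of 0.1 it was 1 rather than 2 for Cdk9-DN minus control at day 10 and 0 rather than 2 for the day 10 effect minus the day 4 effect. With separate fits it was 2 rather than 4 for control day 10 minus day 5, 3 rather than 6 for control day 10 minus day 4 and 2 rather than 5 for Cdk9-DN day 10 minus day 4. With genes listed in all 12 libraries, which leaves 3 members to test, the counts in the order of these 5 comparisons were 0, 0, 1, 3 and 2. With no filter on low values it was 3 rather than 2 for Cdk9-DN minus control at day 10 (Foxl2os added), 6 rather than 4 for control day 10 minus day 5 and 7 rather than 6 for control day 10 minus day 4 (Foxa3 and Foxo6 added to both, Foxj2 lost from the latter). Leaving out 1 library at a time gave 1 to 2 for Cdk9-DN minus control at day 10 and for the day 10 effect minus the day 4 effect, 0 to 1 for control day 5 minus day 4, 2 to 4 for control day 10 minus day 5, 3 to 6 for control day 10 minus day 4 and 2 to 5 for Cdk9-DN day 10 minus day 4, partly because Foxh1, Foxj1 and Foxj2 lose their only value in a group. Days 4 and 5 between the vectors stayed at 0 in every alternative, where Foxi3, Foxh1 and Foxj1 had little or no room for a call.

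Same-numbered libraries of both vectors did not deviate together (correlations over 3491 genes of 0.0205, 0.0653 and -0.0168 at days 4, 5 and 10). With 2 libraries per group, this cannot tell whether they shared a culture or preparation. With the replicate block the count was 2 for Cdk9-DN minus control at day 10 and 5 rather than 6 for control day 10 minus day 4. The share of all genes called at day 10 between the vectors ran from 8.14% to 28.9% over the alternatives. Below about 0.2 FPKM a value rests on a handful of fragments.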

Other observations

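2 further gene lists were chosen after the values of Foxj1 and Foxh1 were seen, so the limma results of their genes are a description and support nothing about Foxj1 or Foxh1. Of 36 motile cilium genes 17 were listed and 4 tested in control cells from day 4 to day 10. Rsph1, a radial spoke gene (from 1.04 ± 0.30 FPKM to 8.45 FPKM in 1 library), and Tppp3 (from 41.0 FPKM in 1 library to 79.8 ± 4.46 FPKM; SD, n = 2) were higher, and Mns1 was lower, with 7.60 and 2.32 FPKM in 1 library each. Against control at day 10, Cdk9-DN cells had 5.35 FPKM of Rsph1 in 1 library and 94.7 ± 7.94 FPKM of Tppp3, neither of them called, and 5.54 ± 0.582 FPKM of Mns1, which was called higher (0.98, adjusted p = 0.00667, limma). The differences of the other two were -0.57 for Rsph1 (adjusted p = 0.218, limma) and 0.24 for Tppp3 (adjusted p = 0.0831, limma).

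Of 23 Nodal pathway genes 9 were listed and 3 tested. The Nodal co-receptor gene Tdgf1 was listed at 0 in both control libraries of day 4 and at 10.7 and 10.9 FPKM at day 10, and Lefty1, a Nodal inhibitor gene and target, went from 3.14 ± 0.0644 to 7.65 ± 1.39 FPKM (SD, n = 2). Gdf3 rose with them (0.57, adjusted p = 0.00408, limma). With Cdk9-DN at day 10 Tdgf1 (-0.39, adjusted p = 0.0152, limma) and Gdf3 (-0.37, adjusted p = 0.0445, limma) were lower than in control cells, and Lefty1, at 4.28 ± 0.912 FPKM, did not pass (-0.72, adjusted p = 0.0562, limma). The log2 differences between the vectors at day 4 were -0.12 for Gdf3, 0.03 for Tdgf1 and -1.04 for Lefty1, none of them called. The Cdk9-DN effect at day 10 minus that at day 4 was -0.25, -0.42 and 0.33 in that order, also not called. The Lefty1 value had an SE of 0.327, so its sign was not settled.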
